A study of Mus musculus with 12 samples.

Results

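The comparison described here set the dorsal meninges of old mice against those of young mice, both taken 1.5 months after a mild head injury. Its members were chosen by the labels, as the 3 libraries named Aged TBI and the 3 named Young TBI among the 12 libraries of one bulk count table, and it was read across all 18238 genes that passed a filter on low counts, of 55385 in the table. Aged TBI mice were given as 20 to 24 months old, and Young TBI mice as 10 weeks old. The study states 20 months and 10 weeks as the ages at the procedure, 1.5 months before the meninges were taken. Traumatic brain injury (TBI) was given as 1 closed-skull hit from an electromagnetic impactor over the right inferior temporal lobe. By the study's account the dorsal tissue taken left out the site of the hit. The word injured therefore refers below to the mice, and not to damaged tissue. The other 6 libraries, 3 of Aged Sham and 3 of Young Sham, came from mice of the same ages that were anaesthetised but not hit, and they stand beside the injured libraries as the uninjured age difference. All mice were male wild type C57BL/6 animals with no transgene. The young were C57BL/6J bought from a commercial supplier, and the old were raised by the National Institute on Aging from stock of that supplier and lived in the local facility for at least 2 months, so age and origin cannot be told apart. Each library was a pool of meninges scraped from the skullcaps of 2 mice, or up to 3, as the sources differ on this, and the library is the replicate.

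The meninges are the membranes that wrap the brain. Their fibroblasts lay down collagen sheets, their arachnoid cells form a barrier towards the cerebrospinal fluid, and their vessels and sinuses carry macrophages, lymphocytes and antibody-secreting plasma cells. Type I interferons are cytokines that switch on antiviral genes in most cell types, and both antibody-secreting cells and interferon responses are known to increase in several tissues with age.

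Total counts ranged from 8092374 to 16087717 over the 12 libraries, and replicates of a group differed by more than sampling noise in every pair (chi-square per degree of freedom 3.64 to 24.27). Levels are given as CPM, counts brought to a common library size with the trimmed mean of M values (TMM), so they compare libraries and not genes of different length. The label of the tissue fitted its markers: the endothelial gene Pecam1 lay between 260 and 369 CPM, the macrophage receptor Mrc1 between 175 and 288 CPM and the barrier cell transporter Slc47a1 between 429 and 649 CPM in all libraries, whereas the neuronal nuclear protein gene Rbfox3 did not exceed 1.35 CPM. Other genes listed for neural tissue were not absent. The 14 neuron genes tested summed to 853 to 1090 CPM and the 12 astrocyte and oligodendrocyte genes to 642 to 795 CPM. The 11 pineal and pituitary genes summed to 1330 to 2220 CPM. Aged Sham 3 stood apart in bone cell genes. Its 9 osteoclast genes summed to 2540 CPM and its 19 bone genes to 4330 CPM, against at most 666 and 1990 CPM in any other library. A pair of injured libraries held more skeletal muscle RNA than the rest, with 16 muscle genes summing to 2630 CPM in Aged TBI 2 and 715 CPM in Young TBI 3, against 63.6 to 133 CPM elsewhere.

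Of the 18238 genes tested, 1809 (9.92%) were called higher and 1874 (10.3%) lower in Aged TBI than in Young TBI at an adjusted p under 0.1 by edgeR's quasi-likelihood test. The count of calls in each list below is to be read beside these shares. The rises were larger than the falls. The median log2 fold change was 0.56 among genes called higher and -0.37 among genes called lower, and 459 rises but 212 falls were over 2-fold, 151 and 15 over 4-fold, and 92 and 0 over 8-fold. The rises include many immunoglobulin variable segments, described below. Of 122 such segments tested 77 were called higher and 0 lower, with a median log2 fold change of 3.41 over the 122. Their share of the larger rises was not counted. In 3400 genes (18.6%) all 3 Aged TBI libraries lay above all 3 Young TBI libraries, and in 2997 (16.4%) all lay below. The count of genes called higher was 1193 without Aged TBI 1, 959 without Young TBI 1 and 1130 without Young TBI 2, and that of genes called lower was 1158 without Young TBI 1. Scaled by library totals alone, 3195 genes were called higher and 1257 lower (71.8% higher, against 49.1% with TMM), with log2 fold changes shifted up by 0.08. The 100 most abundant genes took 13% to 13.1% of counts in Aged TBI and 14.4% to 15.2% in Young TBI.

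**Figure D1:**
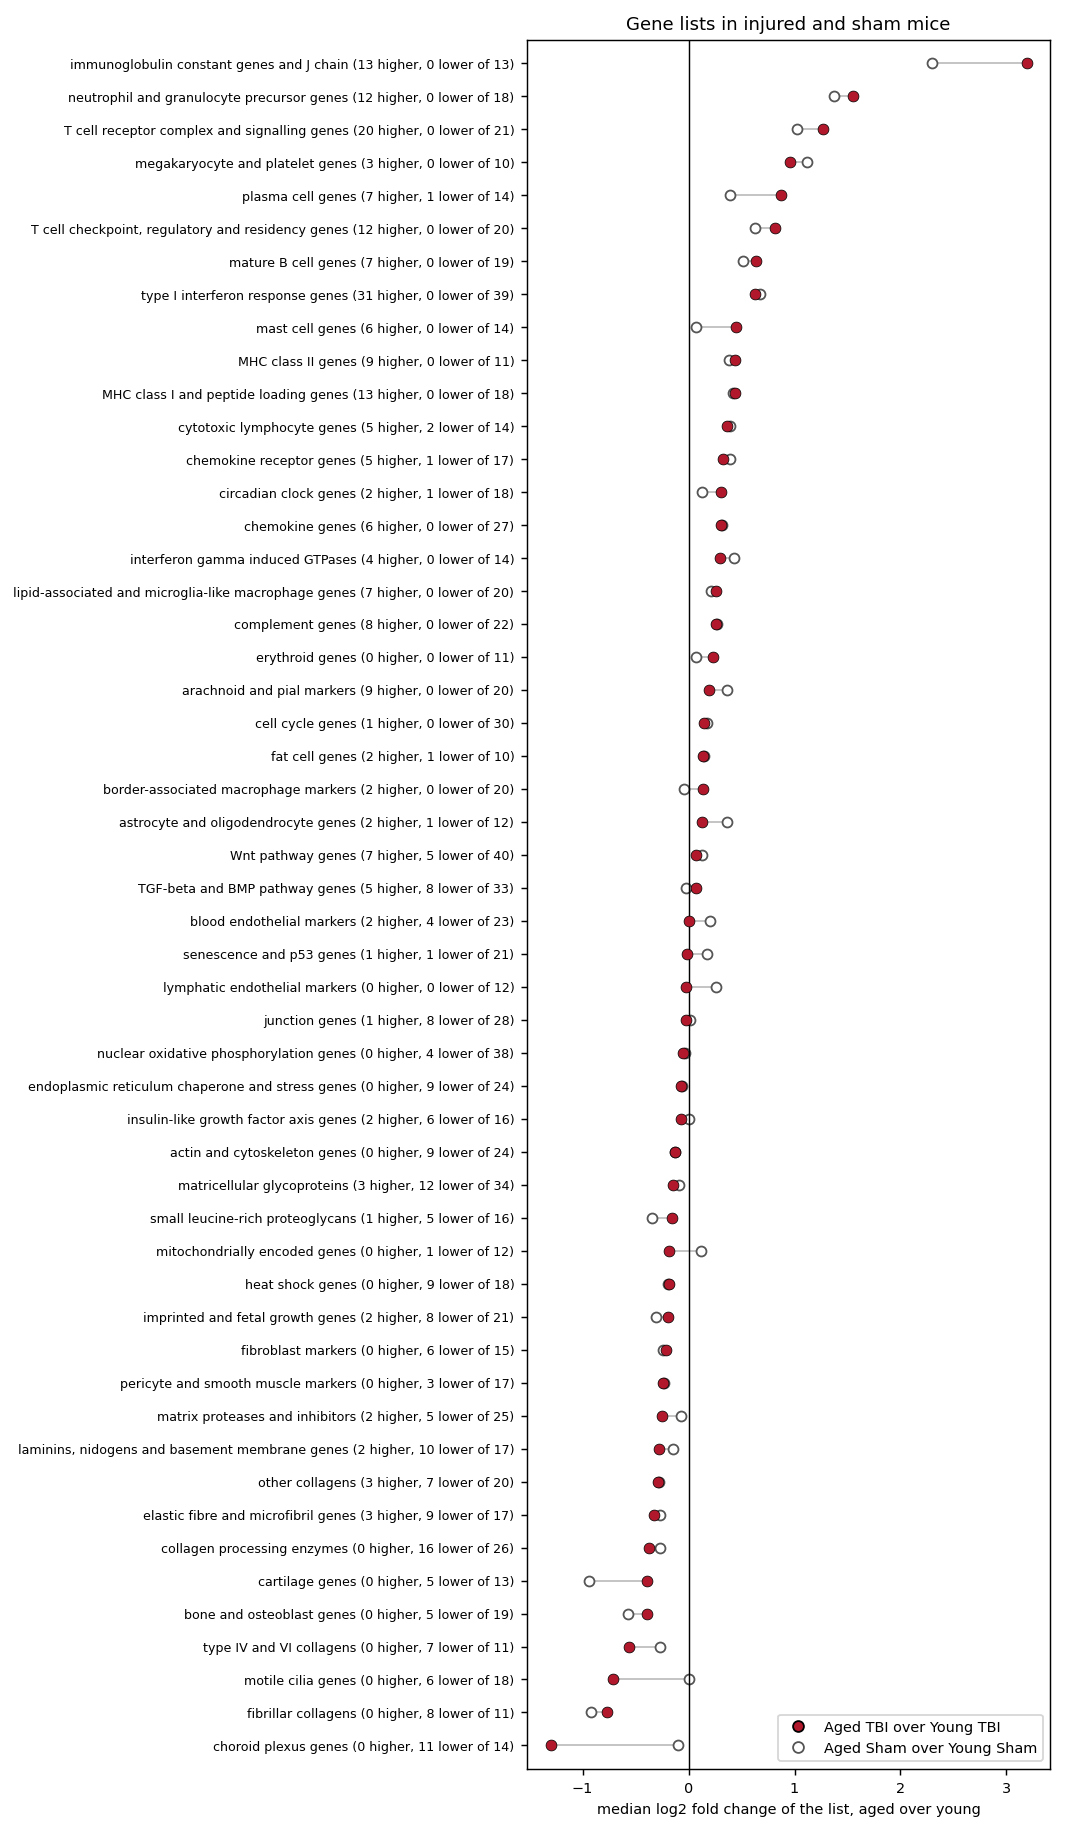
Median log2 fold change of the members of each gene list, with filled red points for Aged TBI over Young TBI, open points for Aged Sham over Young Sham, and the number of members called higher and lower in the injured comparison beside each list. The list of 13 immunoglobulin constant genes and Jchain lies farthest to the right (3.19), the choroid plexus list farthest to the left (-1.30), and its sham value lies at -0.10.

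Antibody genes were the most strongly raised group. Summed over the 12 immunoglobulin constant genes and Jchain, Aged TBI 1 to 3 held 4890, 3200 and 2440 CPM, against 360, 403 and 308 CPM in Young TBI 1 to 3. All 13 were called higher, with a median log2 fold change of 3.19 against 0.02 over all genes tested. Ighe, with no count in any young library, passed the low-count filter through the old libraries alone, so its call adds no support. Between the sham groups 8 of the 13 were called higher in the old, with a median of 2.30. In bulk tissue more cells of a type and more RNA per cell cannot be told apart, here and in all that follows.

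Ighm (chromosome 12, 113418558 to 113422730 on GRCm38), the constant region of IgM, had 2320, 795 and 831 CPM in Aged TBI and 192, 211 and 157 CPM in Young TBI (log2 fold change 2.82 ± 0.36 SE, adjusted p = 0.00107). Aged TBI 1 was far above the other 2 old injured libraries, the groups did not overlap, and the difference was 2.11 without it. Igkc (chromosome 6, 70726435 to 70726966), the kappa light chain, had 974, 726 and 606 CPM in Aged TBI and 82.9, 97.9 and 71.5 CPM in Young TBI (3.19 ± 0.22, adjusted p = 5.72e-05). Its libraries were even within each group. Igha (chromosome 12, 113254830 to 113260236), the heavy chain of the mucosal antibody IgA, had 423, 488 and 280 CPM in Aged TBI and 34.5, 33.9 and 22.6 CPM in Young TBI (3.70 ± 0.32, adjusted p = 0.000234). Jchain, which joins IgA and IgM units, followed with 291, 165 and 135 CPM against 21.2, 29.7 and 16.7 CPM.

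The IgG subclasses differed in which old library was highest. Ighg2b had 299, 583 and 111 CPM in Aged TBI and 9.59, 12 and 9.95 CPM in Young TBI (log2 fold change 4.96 ± 0.55, adjusted p = 0.000636), and 4.26 without Aged TBI 2. Ighg3 had 239, 13 and 43.4 CPM in Aged TBI and 1.16, 0.797 and 4.59 CPM in Young TBI (5.67 ± 1.20, adjusted p = 0.0108), a difference that was 3.83 without Aged TBI 1 and 6.65 without Young TBI 3. Thus a different pool led for each of these subclasses, Aged TBI 2 for IgG2b and Aged TBI 1 for IgG3. Ighg1 had 76.1, 123 and 146 CPM against 4.07, 4.62 and 6.25 CPM (4.55 ± 0.56), highest in Aged TBI 3. Ighg2c was even among old injured pools, with 237, 272 and 259 CPM in Aged TBI and 7.75, 5.90 and 10.5 CPM in Young TBI, but reached 164 CPM in Young Sham 2, whose 2 companions had 7.53 and 6.06 CPM. Ighe, the IgE heavy chain, had 2.44, 0.0685 and 1.52 CPM in Aged TBI and no count in any young library. Its call was lost without Aged TBI 1 (adjusted p = 0.163), Aged TBI 3 (0.138), Young TBI 1 (0.155), Young TBI 2 (0.148) or Young TBI 3 (0.124). Ighd, which marks naive B cells, had 9.26, 2.88 and 8.37 CPM in Aged TBI and 2.71, 3.35 and 4.34 CPM in Young TBI. The groups overlapped, and leaving out any library other than Aged TBI 2, Aged Sham 1 or Aged Sham 3 ended its call (adjusted p 0.104 to 0.275).

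Variable segments, from which each B cell clone assembles its own receptor, were read beside the constant genes. Of 122 segments tested 77 were called higher and 85 had all Aged TBI libraries above all Young TBI libraries. A segment could pass the low-count filter through the old libraries alone, so these counts describe the segments that passed and give no further support to the rise. The calls covered 44 of 64 kappa segments on chromosome 6, 31 of 55 heavy chain segments on chromosome 12 and 2 of 3 lambda segments on chromosome 16. Summed segment levels were 1110, 679 and 459 CPM in Aged TBI 1 to 3 and 71.4, 76.5 and 60.7 CPM in Young TBI 1 to 3, so the order of the old pools was that of the constant genes. Segments resemble one another, and reads may have been split between them.

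Markers of the cells that make antibody had smaller differences than the immunoglobulin genes. Of 14 plasma cell genes 7 were called higher and 1 lower, the lower call being absent without Aged TBI 3, Young TBI 1 or Young TBI 3. Pou2af1 (chromosome 9, 51213708 to 51240080), a coactivator of immunoglobulin transcription, had 19.2, 9.86 and 10.7 CPM in Aged TBI and 3.78, 2.55 and 3.57 CPM in Young TBI (log2 fold change 2.02 ± 0.29, adjusted p = 0.00169). Derl3, which helps to clear misfolded proteins from the endoplasmic reticulum, had 7.98, 4.18 and 5.40 CPM in Aged TBI and 2.62, 2.39 and 1.53 CPM in Young TBI (1.40 ± 0.26). Both were highest in Aged TBI 1 and did not overlap. Xbp1 and Sdc1, plasma cell genes that other secretory and epithelial cells also use, were not called, with log2 fold changes of -0.04 ± 0.07 and -0.10 ± 0.25.

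Of 19 mature B cell genes 7 were called higher, with a median log2 fold change of 0.64. Aged TBI 1 was the highest old library for 15 of the 19 genes and Aged TBI 2 the lowest for 15. The count was 4 without Aged TBI 1, 11 without Aged TBI 2, 4 without Aged TBI 3 or Young TBI 1 and 3 without Young TBI 2. Cd22, an inhibitory B cell receptor, had 23.2, 7.88 and 11.6 CPM in Aged TBI and 4.65, 3.90 and 7.02 CPM in Young TBI (1.49 ± 0.35, adjusted p = 0.0168). The groups came close to each other but did not overlap, and the difference was 0.93 without Aged TBI 1. The B cell kinase gene Blk (1.32 ± 0.30) and Ly6d (1.20 ± 0.22) rose by similar amounts, while Ebf1, a B cell factor also used by other lineages, was not called at 98.5, 93.8 and 108 CPM against 91.4, 96.6 and 85.4 CPM.

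**Figure D2:**
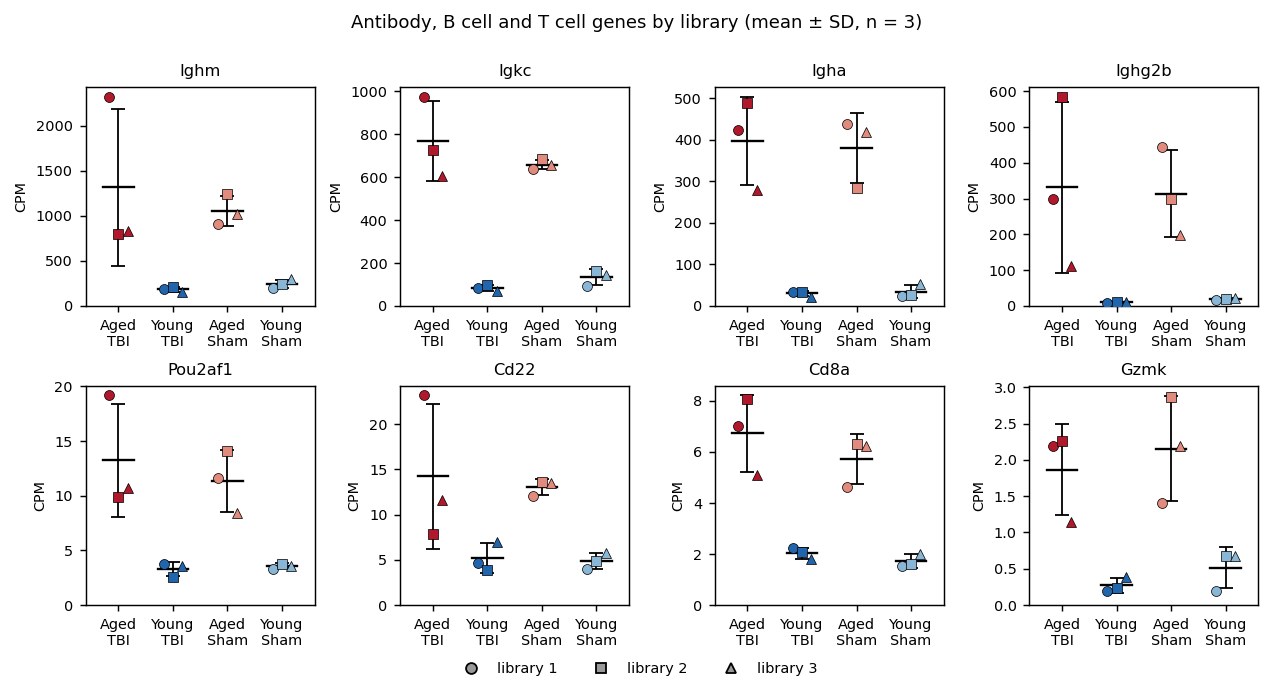
CPM of 8 antibody, B cell and T cell genes, one panel each on a linear axis from 0, with 1 point per library (circle 1, square 2, triangle 3) and bars for the mean ± SD of 3 libraries, in the order Aged TBI, Young TBI, Aged Sham, Young Sham. Igkc spans 606 to 974 CPM in Aged TBI and 71.5 to 97.9 CPM in Young TBI, and the circle of Aged TBI 1 stands above its group for Ighm at 2320 CPM.

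T cell genes rose more evenly over the old pools than B cell genes. Of 21 genes of the T cell receptor complex and its signalling 20 were called higher, with a median log2 fold change of 1.27, and the 20 genes of checkpoint, regulatory and residency function had 12 called higher and a median of 0.82. Receptor gene sums were 115, 105 and 83.6 CPM in Aged TBI 1 to 3 and 47.1, 50.8 and 58.0 CPM in Young TBI 1 to 3. Cd8a (chromosome 6, 71373427 to 71379173), the coreceptor of cytotoxic T cells, had 7.01, 8.08 and 5.10 CPM in Aged TBI and 2.23, 2.07 and 1.79 CPM in Young TBI (log2 fold change 1.72 ± 0.22, adjusted p = 0.00101). Its partner Cd8b1 had 3.05, 4.25 and 2.81 CPM against 0.872, 0.478 and 1.15 CPM (2.07 ± 0.32). Neither gene overlapped between groups. Cd4, the coreceptor of helper T cells, was the one of the 21 not called, with 13.4, 11.4 and 9.74 CPM in Aged TBI and 12.5, 15.8 and 14.7 CPM in Young TBI (-0.31 ± 0.15, adjusted p = 0.196). Between the sham groups the receptor list had 18 called higher in the old and 1 lower (median 1.02). The checkpoint, regulatory and residency list had 11 higher and 0 lower there (0.63).

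Among the other T cell genes, the scavenger receptor family gene Cd6 (2.11 ± 0.35) and Il7r, the receptor for the survival cytokine IL-7 (1.51 ± 0.24), had the wide margins of the CD8 genes. Pdcd1, which encodes the inhibitory receptor PD-1, had 2.74, 2.33 and 1.45 CPM in Aged TBI and 0.678, 0.717 and 0.383 CPM in Young TBI (1.82 ± 0.34, adjusted p = 0.00587). Cd69, a marker of recent activation and tissue residency, had 2.99, 1.85 and 1.83 CPM against 0.678, 0.558 and 1.02 CPM (1.61 ± 0.33), and the costimulator Icos 2.13, 2.40 and 2.05 CPM against 0.775, 0.558 and 1.15 CPM (1.45 ± 0.29). None of these 3 genes overlapped between groups.

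Granzymes, the proteases of cytotoxic granules, went both ways. Gzmk had 2.19, 2.26 and 1.14 CPM in Aged TBI and 0.194, 0.239 and 0.383 CPM in Young TBI (log2 fold change 2.80 ± 0.51, adjusted p = 0.00536). Gzma, typical of natural killer cells, had 0.244, 0.616 and 0.456 CPM in Aged TBI and 1.07, 1.75 and 1.79 CPM in Young TBI (-1.80 ± 0.41, adjusted p = 0.0151). The 2 genes lie on chromosome 13 (113171608 to 113225908 and 113093825 to 113100981), and in each the groups were apart, in opposite directions. Sham libraries gave the same picture, at 2.0 ± 0.42 for Gzmk and -1.79 ± 0.38 for Gzma. The granule membrane gene Nkg7 rose (1.06 ± 0.18), and Gzmm was not called at 13, 16.9 and 15.4 CPM against 13.7, 18.5 and 17.9 CPM. Over the 14 cytotoxic genes 5 were called higher and 2 lower; there were 3 higher without Young TBI 1, and 1 lower without Aged TBI 1, Aged TBI 2, Young TBI 2 or Young TBI 3.

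Type I interferon genes rose together in the old injured meninges, by less than 2-fold at the median. All 39 genes tested had positive log2 fold changes (median 0.63), and 31 were called higher. Summed levels were 2160, 2140 and 1560 CPM in Aged TBI 1 to 3 and 1300, 1360 and 1480 CPM in Young TBI 1 to 3. Aged TBI 3 was the lowest old library in all 39 genes and Young TBI 3 the highest young library in 29, so the groups were apart in 23 genes and overlapped in 16. The count was 17 without Aged TBI 1, 20 without Aged TBI 2 and 17 without Young TBI 1. Between the sham groups 34 of the 39 were called higher in the old, with a median log2 fold change of 0.67.

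Interferon acts through transcription factors that bind a DNA motif with spaced GAAA repeats near the start of their target genes. The letters GAAA, any 2 bases and GAAA, read on both strands in the 250 bases before each RefSeq start (GRCm38.p6), were present in 936 of 27025 promoters (3.46%). They were found in 15 of the 28 tested interferon genes with a promoter in the table, in 83 of 1258 genes called higher (6.60%) and in 38 of 1449 called lower (2.62%). The promoters of Ifi213, Ifit1 and Oas1a are printed as examples with a match, chosen among the genes described next. Among the interferon genes called higher, 11 of 20 with a promoter in the table held a match. Each is the 120 bases before the start, 5′ to 3′ on the gene's strand, with every match in capitals, which reads TTTC, any 2 bases, TTTC where it lies on the other strand. They lie at chr1:173599273-173599392 (minus strand, Ifi213, match beginning 73 bases before the start), chr19:34640769-34640888 (plus strand, Ifit1, matches beginning 104 and 85 bases before) and chr5:120907526-120907645 (minus strand, Oas1a, matches that overlap and begin 20 and 14 bases before).
Ifi213: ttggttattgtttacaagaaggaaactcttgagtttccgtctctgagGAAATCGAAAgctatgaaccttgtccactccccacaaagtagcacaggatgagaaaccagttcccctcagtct
Ifit1: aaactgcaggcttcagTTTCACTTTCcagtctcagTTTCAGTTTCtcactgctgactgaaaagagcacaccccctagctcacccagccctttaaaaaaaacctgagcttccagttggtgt
Oas1a: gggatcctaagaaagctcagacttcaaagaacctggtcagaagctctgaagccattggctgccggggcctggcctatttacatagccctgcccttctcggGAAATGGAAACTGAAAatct
A match describes these letters and was not measured as a binding site.

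Ifi213, of the family of DNA sensors clustered on chromosome 1, had 18.8, 17.4 and 11.1 CPM in Aged TBI and 6.59, 7.89 and 7.78 CPM in Young TBI (log2 fold change 1.09 ± 0.17, adjusted p = 0.00281). Oas1a (chromosome 5, 120896256 to 120907521), of the family that activates RNase L on double-stranded RNA, had 22.7, 21.0 and 15.7 CPM in Aged TBI and 9.78, 8.61 and 10.5 CPM in Young TBI (1.05 ± 0.17, adjusted p = 0.00314). Both were apart, with Aged TBI 3 lowest of the old. Ifit1, which binds foreign RNA, had 85.6, 72.8 and 42.4 CPM in Aged TBI and 29.9, 30.4 and 37.8 CPM in Young TBI (1.04 ± 0.21, adjusted p = 0.00875), so that Aged TBI 3 and Young TBI 3 nearly met. Mx1, an antiviral GTPase, had 28.6, 23.6 and 14.7 CPM against 12.3, 9.96 and 13.5 CPM (0.92 ± 0.23, adjusted p = 0.0219). Among the 8 members not called, Irf9, a DNA-binding factor of the pathway, had 78.8, 86.0 and 57.2 CPM in Aged TBI and 64.1, 71.2 and 62.9 CPM in Young TBI (0.16 ± 0.12, adjusted p = 0.393). Ddx58, the RNA sensor RIG-I, was another (0.19 ± 0.09).

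Of 14 GTPases that interferon gamma induces 4 were called higher, with a median log2 fold change of 0.30, but 1 was called without Aged TBI 1, Aged TBI 2, Young TBI 1 or Young TBI 2, 2 without any 1 of the Young Sham libraries and 7 when libraries were scaled by totals alone. All 9 with a promoter in the table held the motif. Gbp8, a guanylate-binding protein gene, had 14.9, 16.5 and 13.4 CPM in Aged TBI and 7.46, 8.37 and 9.19 CPM in Young TBI (0.85 ± 0.15, adjusted p = 0.00531), with the groups apart.

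**Figure D3:**
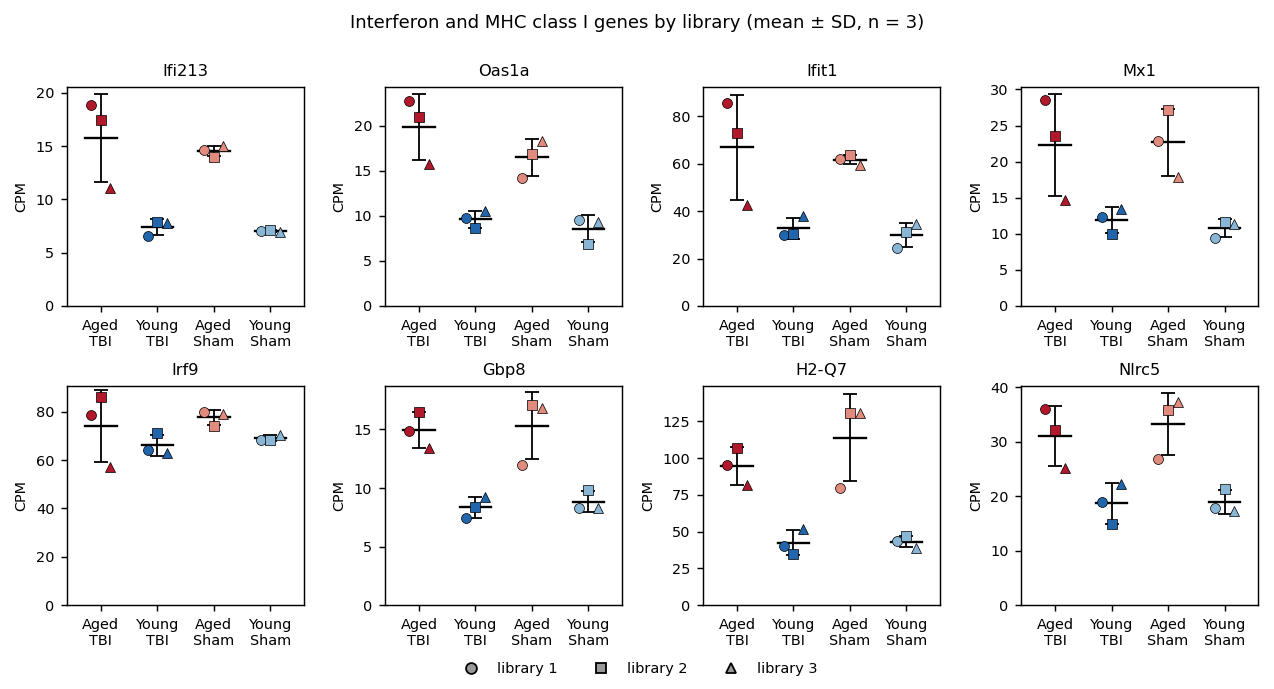
CPM of 8 interferon and MHC class I genes, one panel each on a linear axis from 0, with 1 point per library (circle 1, square 2, triangle 3) and bars for the mean ± SD of 3 libraries. The triangle of Aged TBI 3 is the lowest point of its group in all panels, at 42.4 CPM for Ifit1 against 37.8 CPM for the triangle of Young TBI 3.

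Antigen presentation genes were higher in the old injured meninges, with class I called for 13 of 18 (median log2 fold change 0.44) and class II for 9 of 11 (0.44). The class II count was 4 without Young TBI 1 and 4 without Young TBI 2. Between the sham groups 13 class I genes (median 0.42) and 6 class II genes (0.38) were called higher in the old. H2-Q7 (chromosome 17, 35439155 to 35443773), a class I gene outside the classical set, had 95.4, 107 and 81.7 CPM in Aged TBI and 40.3, 35.1 and 52.1 CPM in Young TBI (1.17 ± 0.19, adjusted p = 0.00353). H2-Q6 (1.17 ± 0.20) and H2-Q4 (0.84 ± 0.17) beside it moved alike, but these are near-identical copies and reads may be shared between them. Nlrc5, the activator of class I transcription, had 36.0, 32.1 and 25.1 CPM in Aged TBI and 18.9, 14.8 and 22.3 CPM in Young TBI (0.75 ± 0.18, adjusted p = 0.0176). The groups were apart, by little between Aged TBI 3 and Young TBI 3. Tapbp, the peptide loading factor tapasin, was not called (-0.09 ± 0.07).

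In class II, H2-Eb2, H2-Oa and H2-Ob had the largest rises, and H2-Ob encodes a chain of a B cell regulator of peptide loading. H2-Ob had 13.1, 7.88 and 11.7 CPM in Aged TBI and 5.13, 4.78 and 6.12 CPM in Young TBI (1.04 ± 0.24, adjusted p = 0.0155). H2-Eb2 had 3.29, 1.03 and 1.45 CPM against 0.291, 0.239 and 0.766 CPM (2.26 ± 0.54), and 1.59 without Aged TBI 1. H2-Oa, the partner chain of H2-Ob, had 2.56, 1.23 and 2.59 CPM against 0.775, 0.877 and 1.02 CPM (1.26 ± 0.39, adjusted p = 0.0511), and its call was lost without Aged TBI 1 (0.152), Aged TBI 3 (0.147), Young TBI 1 (0.163) or Young TBI 2 (0.133). The groups were apart for all 3 genes. H2-Ob and H2-Eb2 were highest in Aged TBI 1, the pool with the most B cell RNA, and the part of B cells in their rise was not tested. Cd74, the invariant chain, had 684, 741 and 591 CPM against 571, 563 and 658 CPM, overlapping and not called, and the class II activator Ciita reached 0.32 ± 0.12 (adjusted p = 0.108).

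C4b (chromosome 17, 34728380 to 34743882), a complement component that tags surfaces, had 358, 313 and 269 CPM in Aged TBI and 142, 144 and 131 CPM in Young TBI (log2 fold change 1.17 ± 0.18, adjusted p = 0.00251). All old libraries lay well above all young ones. Of 22 complement genes 8 were called higher, and 5 without Aged TBI 1, 3 without Aged TBI 2 and 3 without Young TBI 1. Sham libraries had 9 of them called higher in the old and 1 lower, with a median of 0.27, against 0.26 in injured libraries. C2, of the same pathway as C4b, had 16.7, 14.9 and 16.7 CPM against 10.2, 8.29 and 11.5 CPM (0.70 ± 0.13, adjusted p = 0.00538). Serping1, the C1 inhibitor and one of the most abundant of them, had 669, 670 and 666 CPM against 570, 573 and 601 CPM, apart in all libraries but not called (0.20 ± 0.09, adjusted p = 0.148).

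Of 27 chemokine genes 6 were called higher, and 3 without Aged TBI 1, Aged TBI 2 or Young TBI 2. Ccl8 (chromosome 11, 82115185 to 82116799), which attracts monocytes and T cells, had 95.7, 85.1 and 70.1 CPM in Aged TBI and 22.7, 27.9 and 24.2 CPM in Young TBI (log2 fold change 1.74 ± 0.16, adjusted p = 0.000317). Cxcl13, the attractant of B cells, had 8.10, 9.52 and 9.81 CPM against 2.91, 2.39 and 4.72 CPM (1.49 ± 0.31, adjusted p = 0.00963). Cxcl13 did not share the order of the B cell genes, since Aged TBI 1 was its lowest old library. Cxcr6, a chemokine receptor gene of T cells (1.16 ± 0.20), and Ccr7, which guides cells towards lymph nodes (0.93 ± 0.21), were among 5 of 17 chemokine receptors called higher, with 1 lower. That count was 2 without Aged TBI 1 or Young TBI 1 and 8 without Aged Sham 3. Pf4, a chemokine of platelets and macrophages, was not called (0.20 ± 0.11).

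Of 20 markers of border-associated macrophages, the resident macrophages of the meninges, 2 were called higher, a share near the 9.92% of all genes tested, and the median log2 fold change was 0.14, turning to -0.02 without Aged TBI 1. The count was 5 with library totals alone, 4 without Aged TBI 3 or Aged Sham 3, and 1 without Aged TBI 1, Aged TBI 2, Young TBI 1 or Young TBI 3. Ms4a7 had 33.9, 35.8 and 26.4 CPM in Aged TBI and 24.3, 23.3 and 25.6 CPM in Young TBI (0.40 ± 0.10, adjusted p = 0.0251), and the scavenger receptor Stab1 had 604, 467 and 461 CPM against 584, 579 and 565 CPM and was not called.

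Genes of lipid handling and microglia-like macrophages had 7 of 20 called higher, with 3 without Aged TBI 1, 4 without Young TBI 1 and 11 when libraries were scaled by totals alone. Trem2, a receptor for lipids, had 55.4, 40.7 and 37.0 CPM in Aged TBI and 25.2, 25.6 and 27.2 CPM in Young TBI (log2 fold change 0.78 ± 0.14, adjusted p = 0.00486). Ctss, a lysosomal protease that cleaves the invariant chain, had 249, 235 and 193 CPM against 130, 137 and 156 CPM (0.68 ± 0.10, adjusted p = 0.00209). Both were apart and highest in Aged TBI 1. Apoe, the apolipoprotein, overlapped at 2990, 2900 and 2690 CPM against 2700, 2540 and 2910 CPM (0.08 ± 0.08).

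Neutrophil genes had a median log2 fold change of 1.55, and 12 of 18 were called higher, but their level varied by library. The list summed to 1360, 1230 and 742 CPM in Aged TBI 1 to 3 and 769, 372 and 365 CPM in Young TBI 1 to 3, Young TBI 1 being the highest young library in 15 of 18 genes. The count was 6 without Young TBI 2 and 6 without Young TBI 3. Between the sham groups 5 of the 18 were called higher in the old, with a median of 1.37. Fcnb, the recognition protein ficolin B of granulocyte precursors, had 5.85, 5.14 and 4.79 CPM in Aged TBI and 1.45, 1.35 and 0.510 CPM in Young TBI (2.19 ± 0.53, adjusted p = 0.0203). Cebpe, a factor of granulocyte maturation, had 4.94, 4.38 and 3.12 CPM against 1.74, 0.797 and 0.766 CPM (1.90 ± 0.47), and Ms4a3, a marker of granulocyte and monocyte progenitors, 2.32, 2.19 and 2.97 CPM against 0.581, 1.04 and 0.255 CPM (1.88 ± 0.41, and 2.47 without Young TBI 2). These precursor genes were apart. S100a9, the abundant calcium-binding protein of mature neutrophils, overlapped at 226, 239 and 122 CPM against 139, 54.2 and 39.6 CPM and was not called (1.33 ± 0.53, adjusted p = 0.122). The precursor genes were named as called members and S100a9 as one not called, so no split between precursor and mature genes is shown. Positive log2 fold changes were found in 17 of the 18 genes. Of 10 megakaryocyte and platelet genes 3 were called higher, 6 with library totals alone, 5 without Aged Sham 1 and 1 without Aged TBI 1, Aged TBI 2, Young TBI 1 or Young TBI 2. Treml1, a platelet receptor, had 3.72, 2.12 and 1.07 CPM against 0.484, 0.478 and 0.638 CPM (2.13 ± 0.52, adjusted p = 0.0204), apart between groups. Granulocyte precursors and megakaryocytes are cells of bone marrow, and the part of skull marrow RNA in these values was not tested.

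Several of the largest or most certain rises lay outside these groups. Scgn (chromosome 13, 23953456 to 23991214), the calcium-binding protein secretagogin, had the lowest p of the named genes that rose, with 8.29, 8.97 and 9.05 CPM in Aged TBI and 0.969, 1.27 and 1.15 CPM in Young TBI (log2 fold change 2.94 ± 0.18, adjusted p = 3.42e-05). Trank1 (chromosome 9, 111311739 to 111395775) had 38.9, 41.2 and 46.4 CPM in Aged TBI and 1.94, 4.06 and 4.34 CPM in Young TBI (3.62 ± 0.27, adjusted p = 9.54e-05). Sema5b (chromosome 16, 35541145 to 35664732), a semaphorin of the axon guidance family, had 14.1, 14.2 and 16.4 CPM against 3.87, 4.38 and 3.57 CPM (1.90 ± 0.15, adjusted p = 0.000123). In all 3 genes each group was narrow and the gap was wide, which follows from their choice by low p and no overlap. The sham groups gave log2 fold changes of 3.37 ± 0.18, 3.08 ± 0.26 and 1.66 ± 0.14 in the same order. Prrxl1, a homeobox factor of sensory neurons (2.78 ± 0.25), and Tmem59l (1.58 ± 0.15) rose in the same manner, with 6.82, 4.66 and 4.26 CPM against 0.872, 0.558 and 0.893 CPM for Prrxl1 and 27.5, 22.6 and 22.1 CPM against 6.20, 7.73 and 10.5 CPM for Tmem59l.

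Genes near 0 in young libraries gave large but imprecise fold changes. Oosp1, first known from oocytes, had 1.89, 1.37 and 1.75 CPM in Aged TBI and 0.0969, 0 and 0 CPM in Young TBI (log2 fold change 5.31 ± 0.62; 7.43 without Young TBI 1 and 4.69 without Young TBI 2). Ubd, a ubiquitin-like modifier that interferon gamma induces, had 1.28, 1.03 and 0.837 CPM against 0, 0.0797 and 0.128 CPM (3.83 ± 0.82). H2-M11, a class I gene outside the classical set, had 1.16, 1.03 and 0.837 CPM against 0, 0.159 and 0 CPM (3.78 ± 0.63, and 6.69 without Young TBI 2). All 3 were detected in each Aged TBI library, which the rule of no overlap between groups ensures. In 2 further genes a single old library stood far above the other old ones. Cdh8, a neural cadherin, had 1.16, 2.05 and 9.51 CPM against 0.678, 0.398 and 0.128 CPM (3.28 ± 0.81, and 1.89 without Aged TBI 3). Its sham difference was 2.15 ± 0.73 (adjusted p = 0.0856), with 3.21, 2.86 and 3.89 CPM in Aged Sham and 1.14, 0.543 and 0.589 CPM in Young Sham. Krt5, a keratin of skin, had 46.2, 1.3 and 0.609 CPM in Aged TBI and 0, 0.239 and 0.128 CPM in Young TBI (6.86 ± 2.44, adjusted p = 0.0858; 2.79 without Aged TBI 1 and 7.95 without Young TBI 2), and its call was lost without Aged TBI 1 (adjusted p = 0.53), Young TBI 1 (0.223), Young TBI 2 (0.192), Young TBI 3 (0.181) or Aged Sham 2 (0.107). Krt5 also stood at 39.9 CPM in Young Sham 2.

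Matrix genes made up the most abundant group that fell. The 11 fibrillar collagens, the rope-forming collagens of connective tissue, summed to 10200, 10300 and 8390 CPM in Aged TBI and 20600, 18200 and 17700 CPM in Young TBI. Of the 11, 8 were called lower, with a median log2 fold change of -0.77. The sums did not overlap. Sham libraries had 8950, 8570 and 9770 CPM when aged and 18000, 15800 and 20900 CPM when young.

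Col1a1 (chromosome 11, 94936224 to 94953042), the main chain of type I collagen, had 3110, 2990 and 2370 CPM in Aged TBI and 7110, 5960 and 6040 CPM in Young TBI (log2 fold change -1.17 ± 0.12, adjusted p = 0.000511). Its partner chain Col1a2 (chromosome 6, 4504814 to 4541544) had 4990, 4900 and 4170 CPM against 8660, 7480 and 7790 CPM (-0.77 ± 0.10, adjusted p = 0.00132). Col3a1, of elastic tissues, had 1190, 1470 and 1070 CPM against 3160, 3190 and 2530 CPM (-1.25 ± 0.18). In each of the 3 the highest old library lay below the lowest young one. Col5a1, which sets fibril width, fell by 1.08 on the log2 scale (± 0.16), while Col11a2 was not called at 101, 107 and 89.1 CPM against 186, 115 and 105 CPM (-0.45 ± 0.21).

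Network and beaded collagens fell too. Of 11 type IV and VI chains 7 were called lower (median log2 fold change -0.56). Col6a5 (chromosome 9, 105856078 to 105960643) had 35.2, 62.5 and 61.0 CPM in Aged TBI and 149, 149 and 160 CPM in Young TBI (-1.53 ± 0.20, adjusted p = 0.00132). Col6a3 had 237, 287 and 217 CPM against 610, 690 and 495 CPM (-1.28 ± 0.16), and Col4a1, the basement membrane chain, 331, 309 and 278 CPM against 621, 589 and 500 CPM (-0.90 ± 0.22, adjusted p = 0.0216). None of them overlapped. For Col4a1 the sham difference was -0.37 ± 0.22, with Aged Sham 3, the library rich in bone cell RNA, at 616 CPM and the other old sham libraries at 291 and 324 CPM.

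Among the remaining collagens directions were mixed, with 3 of 20 called higher and 7 lower. Col16a1 had 307, 323 and 247 CPM in Aged TBI and 614, 598 and 553 CPM in Young TBI (-1.01 ± 0.12), and Col15a1, of the vessel border, 27.4, 30.4 and 31.8 CPM against 49.6, 51.4 and 57.3 CPM (-0.82 ± 0.09, adjusted p = 0.000541). Col25a1, a membrane-bound collagen first found in amyloid plaques, went the other way with 11.4, 10.9 and 12.4 CPM against 4.75, 3.98 and 5.36 CPM (1.31 ± 0.16, adjusted p = 0.000924), its groups apart.

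Enzymes that fold and cross-link collagen moved with it, with 16 of 26 called lower (median log2 fold change -0.37). Loxl1 (chromosome 9, 58287738 to 58313186), a cross-linking oxidase, had 292, 272 and 225 CPM in Aged TBI and 551, 507 and 475 CPM in Young TBI (-0.96 ± 0.11, adjusted p = 0.00078). Serpinh1, the collagen chaperone HSP47, had 598, 635 and 504 CPM against 1150, 1080 and 996 CPM (-0.89 ± 0.11, adjusted p = 0.000924). Both were even within groups and clearly apart. Pcolce2, an enhancer of procollagen cleavage, was less even at 7.37, 15.5 and 7.15 CPM against 29.6, 18.2 and 30.2 CPM (-1.36 ± 0.33), and Crtap, of the prolyl hydroxylation complex, was not called (-0.15 ± 0.07).

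In basement membranes 10 of 17 genes were called lower and 2 higher, and 5 lower without Young TBI 1. Lamb1, a laminin chain, had 64.0, 74.2 and 56.6 CPM in Aged TBI and 137, 120 and 113 CPM in Young TBI (log2 fold change -0.93 ± 0.12, adjusted p = 0.00132). Npnt, an integrin ligand, had 51.4, 79.9 and 64.5 CPM against 178, 183 and 123 CPM (-1.31 ± 0.21). The 2 chains that rose were less abundant. Lama1 had 5.73, 7.74 and 6.62 CPM against 3.10, 1.43 and 3.57 CPM (1.35 ± 0.28, adjusted p = 0.00966), and Lamb3 7.25, 3.22 and 5.02 CPM against 1.65, 2.31 and 1.66 CPM (1.44 ± 0.36). All 4 genes were apart.

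Elastic fibre genes were called lower for 9 of 17 and higher for 3, set against 10.3% and 9.92% of all genes. The microfibril gene Mfap4 had 625, 590 and 621 CPM in Aged TBI and 913, 858 and 900 CPM in Young TBI (log2 fold change -0.54 ± 0.11, adjusted p = 0.0104). Emilin1 fell by a similar amount (-0.48 ± 0.09), and Efemp1, the fibulin-3 gene, rose with 323, 274 and 318 CPM against 220, 203 and 242 CPM (0.46 ± 0.10, adjusted p = 0.0138). Elastin itself, Eln, was apart at 244, 215 and 213 CPM against 328, 313 and 317 CPM but was not called (-0.51 ± 0.22, adjusted p = 0.157); its sham libraries ran between 184 and 436 CPM in the old, the highest being Aged Sham 3.

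Of 34 matricellular genes 12 were called lower and 3 higher, the higher count being 5 without Aged Sham 3 or with library totals alone. Cilp2 (chromosome 8, 69880369 to 69887687), of cartilage and other connective tissue, had 87.3, 138 and 82.1 CPM in Aged TBI and 380, 339 and 331 CPM in Young TBI (log2 fold change -1.77 ± 0.17, adjusted p = 0.000334). Postn, periostin, had 182, 292 and 157 CPM against 706, 712 and 545 CPM (-1.64 ± 0.24, adjusted p = 0.00209). Vcan, the proteoglycan versican, had 7.01, 8.08 and 6.31 CPM against 20.4, 22.2 and 15.8 CPM (-1.45 ± 0.24). For all 3 the highest old library lay far below the lowest young one. Tnn, a tenascin, had 84.3, 151 and 105 CPM against 305, 302 and 241 CPM (-1.32 ± 0.26). Aged TBI 2 was the highest old library for all 4 of them.

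Small leucine-rich proteoglycans, which bind collagen fibrils, had 5 of 16 called lower and 1 higher. The higher call was lost without any library other than Aged Sham 1 or Aged Sham 3, and 3 were lower without Young TBI 1 or Young TBI 3 or with library totals alone. Chad had 151, 273 and 237 CPM in Aged TBI and 489, 489 and 569 CPM in Young TBI (-1.23 ± 0.20, adjusted p = 0.00329), and Podnl1 23, 30.8 and 18.2 CPM against 44.6, 43.3 and 39.9 CPM (-0.83 ± 0.20). Neither overlapped. Among 25 proteases and inhibitors 5 were lower and 2 higher, set against 10.3% and 9.92% of all genes. The counts were 8 and 3 without Aged Sham 3, 2 and 3 without Young TBI 1, and 5 and 4 with library totals alone. Mmp15, a membrane-bound metalloprotease, fell to 38.6, 39.5 and 33.5 CPM in Aged TBI, against 77.2, 67.3 and 70.6 CPM in Young TBI (-0.94 ± 0.13, adjusted p = 0.00144), while Mmp12, the elastase of macrophages, had 6.52, 8.56 and 7.0 CPM against 3.49, 3.67 and 3.57 CPM (1.04 ± 0.19, adjusted p = 0.00535). Timp2, an abundant inhibitor, was not called (-0.29 ± 0.11, adjusted p = 0.106).

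**Figure D4:**
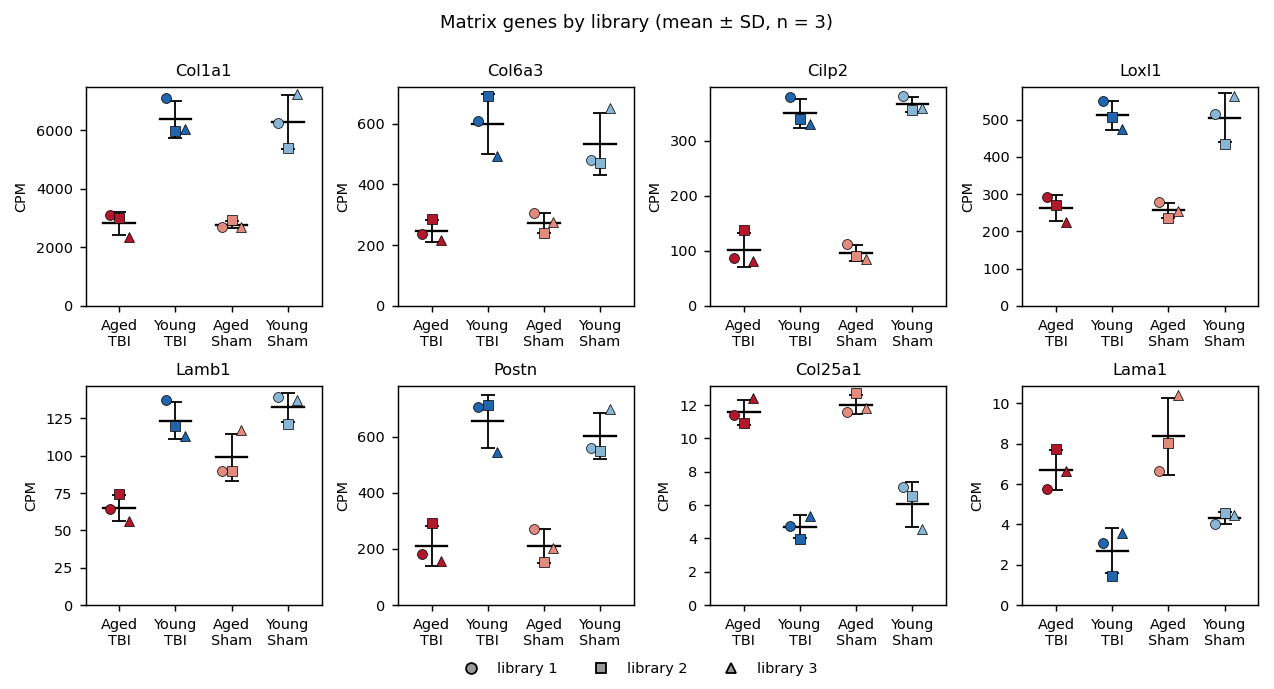
CPM of 8 matrix genes, one panel each on a linear axis from 0, with 1 point per library (circle 1, square 2, triangle 3) and bars for the mean ± SD of 3 libraries, in the order Aged TBI, Young TBI, Aged Sham, Young Sham. Col1a1 spans 2370 to 3110 CPM in Aged TBI and 5960 to 7110 CPM in Young TBI, and the 2 panels that rise, Col25a1 and Lama1, reach no more than 12.7 CPM.

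Of 15 fibroblast markers, a list that includes type I collagen, 6 were called lower and 9 were not called (median log2 fold change -0.21). Igf1, a growth factor of stromal cells, had 153, 172 and 144 CPM in Aged TBI and 271, 304 and 226 CPM in Young TBI (log2 fold change -0.77 ± 0.16, adjusted p = 0.00914), and Pdgfrb, a receptor of fibroblasts and pericytes, 372, 390 and 371 CPM against 559, 516 and 514 CPM (-0.49 ± 0.07, adjusted p = 0.00223). Of 20 arachnoid and pial markers 9 were called higher and 11 were not called (median 0.19). Ptgds (chromosome 2, 25466709 to 25470046), the prostaglandin D synthase secreted into cerebrospinal fluid, had 1300, 1370 and 1340 CPM in Aged TBI and 725, 519 and 879 CPM in Young TBI (0.92 ± 0.16, adjusted p = 0.00512). Slc22a6, an organic anion transporter, had 32.9, 36.2 and 35.8 CPM against 16.3, 9.0 and 18.8 CPM (1.28 ± 0.23), and Slc6a13, a GABA transporter, 31.1, 31.0 and 26.9 CPM against 15.9, 10.5 and 15.1 CPM (1.11 ± 0.20). The old libraries of these genes were even, and Young TBI 2 was the lowest young library in each.

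Of 28 junction genes 8 were called lower, 1 was called higher and 19 were not called (median log2 fold change -0.02). With library totals alone 5 were lower and 3 higher, at a median of 0.05. There were 5 lower without Aged TBI 2, and 5 lower and 2 higher without Young TBI 1. Jup, plakoglobin of desmosomes and adherens junctions, had 81.0, 75.4 and 68.6 CPM in Aged TBI and 136, 125 and 139 CPM in Young TBI (log2 fold change -0.83 ± 0.13, adjusted p = 0.00327). Gja1, connexin 43, had 174, 193 and 161 CPM against 343, 309 and 249 CPM (-0.77 ± 0.14, adjusted p = 0.00501). Cgn, the tight junction protein cingulin, had 7.49, 7.88 and 7.0 CPM against 15.2, 10.8 and 15.4 CPM (-0.88 ± 0.23, adjusted p = 0.0272). All 3 were apart between injured groups. Cdh1, the epithelial cadherin that marks the arachnoid barrier, was the gene called higher, with 72.7, 64.7 and 74.0 CPM against 39.5, 33.8 and 42.0 CPM (0.88 ± 0.20, adjusted p = 0.0135). The abundant catenin gene Ctnna1 was not called (0.04 ± 0.04).

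Vessel markers showed no common direction. Over 23 blood endothelial markers the median log2 fold change was 0.00, and the sign of the median and the few calls changed with the library left out. Calls were 2 higher and 4 lower, set against 9.92% and 10.3% of all genes, but 5 and 2 with library totals alone. Slco1a4, a transporter of the barrier endothelium, had 49.4, 64.3 and 73.6 CPM in Aged TBI and 42.0, 32.4 and 35.1 CPM in Young TBI (0.77 ± 0.15, adjusted p = 0.00679), whereas Plvap, of leaky vessels with fenestrae, had 247, 287 and 271 CPM against 383, 359 and 381 CPM (-0.48 ± 0.11, adjusted p = 0.0172). The groups were apart for both, in opposite directions. Of 17 pericyte and smooth muscle markers 3 were called lower, 5 without Aged Sham 2 or Young TBI 3 and 6 without Aged Sham 3, among them Notch3 with 157, 155 and 175 CPM against 234, 206 and 216 CPM (-0.43 ± 0.09, adjusted p = 0.0102). Acta2, smooth muscle actin, was apart at 510, 528 and 441 CPM against 639, 609 and 537 CPM but was not called (-0.27 ± 0.12).

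Genes of neighbouring tissues that the scraping could carry along were read in the same way. Of 19 bone genes 5 were called lower, 3 without Aged TBI 1, Aged TBI 3 or Young TBI 1 and 8 without Aged Sham 3, and of 13 cartilage genes 5. Alpl, the alkaline phosphatase of osteoblasts and some fibroblasts, had 543, 612 and 604 CPM in Aged TBI and 985, 989 and 895 CPM in Young TBI (log2 fold change -0.71 ± 0.14, adjusted p = 0.00734), and the osteoblast factor Sp7 62.6, 76.6 and 71.2 CPM against 121, 102 and 86.1 CPM (-0.55 ± 0.14). Hapln1, a link protein of cartilage and perineuronal matrix, fell (-1.46 ± 0.27), as did Acan, aggrecan, with 47.9, 42.0 and 44.6 CPM against 90.5, 87.0 and 74.6 CPM (-0.91 ± 0.16). These genes were apart between groups and moved with the collagens. The part of bone and cartilage RNA in the lower collagen levels was not tested. Of 12 astrocyte and oligodendrocyte genes 2 were called higher, 1 lower and 9 were not called (median 0.13), set against 9.92% and 10.3% of all genes. The 2 called higher were the glutamate transporter Slc1a3 with 35.0, 34.9 and 35.8 CPM against 17.9, 19 and 22.3 CPM (0.84 ± 0.09, adjusted p = 0.000511) and the water channel Aqp4 with 15.5, 13.8 and 19.4 CPM against 8.72, 9.40 and 9.70 CPM (0.81 ± 0.14).

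Choroid plexus genes, which are expressed by the epithelium that makes cerebrospinal fluid, were lower in Aged TBI than in every other group. Summed over 14 genes they stood at 2110, 3180 and 1700 CPM in Aged TBI 1 to 3, 5340, 3260 and 5650 CPM in Young TBI 1 to 3, 5740, 4430 and 4290 CPM in Aged Sham 1 to 3 and 6250, 3810 and 5360 CPM in Young Sham 1 to 3. Aged TBI 2 was the highest and Young TBI 2 the lowest of its group, and those 2 nearly met. Of the 14, 11 were called lower, and 6 without Young TBI 1, with a median log2 fold change of -1.30 in the injured and -0.10 in the sham comparison. The difference between the 2 comparisons had an unadjusted p under 0.05 for 9 of the 14 genes, and none was called after adjustment over all genes. The amount of choroid plexus tissue in each pool was not measured, and its part in these values was not tested.

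Ttr, transthyretin, the most abundant of these genes and chosen after its values were seen, had 1020, 1800 and 662 CPM in Aged TBI and 3150, 1770 and 3530 CPM in Young TBI (log2 fold change -1.28 ± 0.34, adjusted p = 0.0286), against 3370, 2620 and 2700 CPM in Aged Sham and 3700, 2140 and 3110 CPM in Young Sham (-0.04 ± 0.33). Aged TBI 2 lay just above Young TBI 2, so the injured groups overlapped. Kl (chromosome 5, 150952607 to 150993817), the anti-ageing factor klotho, had 54.8, 116 and 34.5 CPM in Aged TBI and 325, 126 and 296 CPM in Young TBI (-1.86 ± 0.47, adjusted p = 0.0235), and -2.48 without Aged TBI 2. Its sham libraries lay between 186 and 438 CPM, all above every Aged TBI library. The potassium channel gene Kcnj13 fell by 1.71 on the log2 scale (± 0.41), and the channel subunit Kcne2 had a log2 fold change of -1.79 ± 0.48, or -2.47 without Aged TBI 2, its call being lost without Young TBI 1 (adjusted p = 0.111). Motile cilia genes had 6 of 18 called lower (median -0.71, and 0.00 in sham libraries), 1 without Aged TBI 1 or Young TBI 3, none without Aged TBI 3 or Young TBI 1 and 10 without Young TBI 2. Foxj1, the master factor of motile cilia, had 6.64, 13.7 and 4.94 CPM against 29.8, 11.8 and 24.1 CPM (-1.36 ± 0.43, adjusted p = 0.0568). It overlapped, and its call was lost without Aged TBI 1 (adjusted p = 0.16), Aged TBI 3 (0.168), Young TBI 1 (0.209) or Young TBI 3 (0.127).

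Among the 12 largest falls of the named genes was a pair of neighbours on chromosome 2. Bpifb6 (153900388 to 153912795) had 1.10, 1.16 and 0.456 CPM in Aged TBI and 10.4, 4.38 and 7.15 CPM in Young TBI (log2 fold change -2.97 ± 0.49, adjusted p = 0.00363). Bpifb4 (153938212 to 153964101) had 3.66, 3.29 and 1.22 CPM against 23, 13.1 and 10.8 CPM (-2.50 ± 0.44, adjusted p = 0.00469). They belong to a family of lipid-binding secreted proteins. Unlike the choroid plexus genes, they were also low in sham libraries, at no more than 1.22 CPM for Bpifb6 and 2.99 CPM for Bpifb4 whatever the age, so Young TBI was the one group in which they were high (difference between the age effects -3.10 ± 0.83, unadjusted p = 0.00288 for Bpifb6, not called after adjustment). Gpx6, a glutathione peroxidase, had the same pattern at 1.16, 0.548 and 0.0761 CPM in Aged TBI and 5.81, 1.75 and 5.49 CPM in Young TBI (-2.77 ± 0.63, and -3.70 without Aged TBI 1), with at most 0.649 CPM in sham libraries.

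In 7 of the 12 largest falls, as in the choroid plexus list, Aged TBI 2 was the highest old and Young TBI 2 the lowest young library. Besides Bpifb6 these were the monoamine transporter gene Slc29a4 (log2 fold change -2.05 ± 0.51, and -2.93 without Aged TBI 2), the p53 family factor Trp73 that multiciliated cells need (-2.0 ± 0.54, and -2.61 without Aged TBI 2, its call lost without Young TBI 1 at an adjusted p of 0.116), the beta-defensin Defb11 (-2.29 ± 0.58, and -3.28 without Aged TBI 2), the melanocortin receptor partner Mrap2 (-2.27 ± 0.47), Tmem108 (-2.15 ± 0.49, and -2.84 without Aged TBI 2) and the insulin gene Ins2 (-2.01 ± 0.70, and -2.68 without Aged TBI 2). Slc29a4 had 6.09, 18.8 and 4.56 CPM in Aged TBI and 52.3, 20.6 and 50.5 CPM in Young TBI, so its groups came within 2 CPM. The call of Ins2 was lost without Aged TBI 1 (adjusted p = 0.196), Aged TBI 3 (0.199), Young TBI 1 (0.192) or Young TBI 3 (0.205). Nppc, C-type natriuretic peptide, did not share this order. It had 1.46, 1.78 and 1.07 CPM in Aged TBI and 7.85, 8.84 and 7.40 CPM in Young TBI (-2.47 ± 0.43, adjusted p = 0.00441), and the sham difference was -2.33 ± 0.42. The developmental factors Sox11 (-2.45 ± 0.44) and Sim2 (-2.59 ± 0.55) were at or below 2.07 CPM in all libraries.

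**Figure D5:**
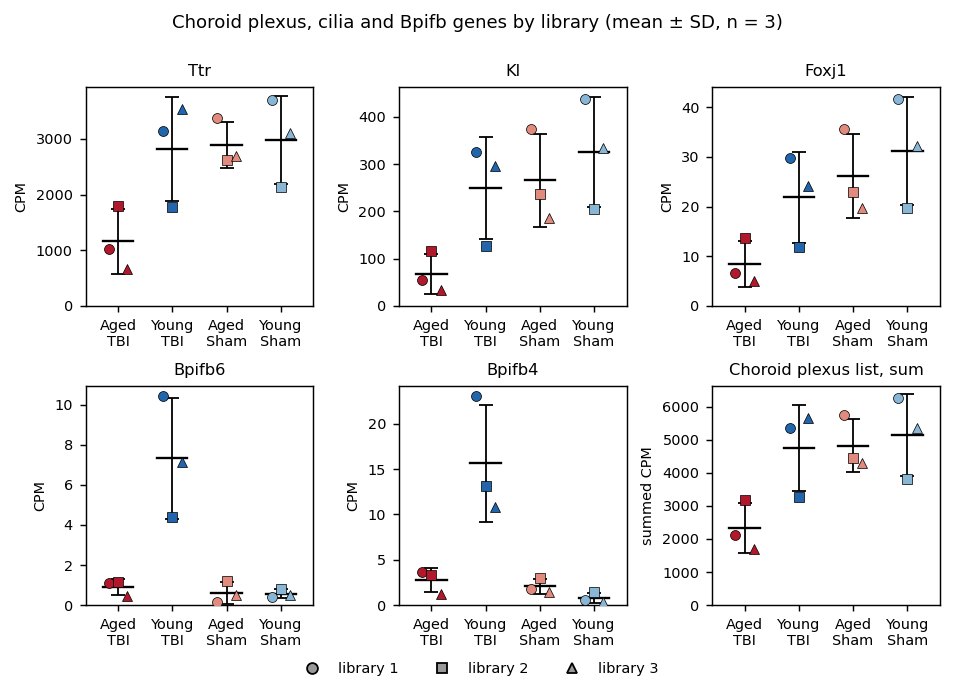
CPM of Ttr, Kl, Foxj1, Bpifb6 and Bpifb4 and the summed CPM of 14 choroid plexus genes, one panel each on a linear axis from 0, with 1 point per library (circle 1, square 2, triangle 3) and bars for the mean ± SD of 3 libraries, in the order Aged TBI, Young TBI, Aged Sham, Young Sham. Kl lies between 34.5 and 116 CPM in Aged TBI and at or above 126 CPM in the other 9 libraries, whereas the Bpifb genes are high in Young TBI alone, 4.38 to 10.4 CPM for Bpifb6.

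The most certain falls were moderate in size. Ephb2 (chromosome 4, 136647539 to 136835988), a receptor for ephrins, had 33.5, 33.1 and 30.8 CPM in Aged TBI and 58.1, 52.8 and 59.5 CPM in Young TBI (log2 fold change -0.80 ± 0.07, adjusted p = 0.000136). Dner, a Notch ligand, had 34.1, 36.0 and 30.2 CPM against 87.2, 90.4 and 70.8 CPM (-1.31 ± 0.12, adjusted p = 0.000317). In both genes the spread within a group was small beside the gap, which follows from their choice by low p and no overlap. Galnt10, which starts O-linked sugar chains (-0.59 ± 0.06), the calcium channel Cacna1g (-0.60 ± 0.06) and the protocadherin Pcdh1 (-0.69 ± 0.07) were alike, and all 5 fell in sham libraries as well, by 0.54 to 1.12 on the log2 scale.

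Of 21 imprinted and fetal growth genes, which are most active before birth, 8 were called lower, 2 higher and 11 were not called, the higher count being 1 without Aged TBI 3 or Young TBI 3 and 0 without Young TBI 1. Igf2bp2, an RNA-binding protein of fetal growth, had 3.78, 4.59 and 4.34 CPM in Aged TBI and 12.9, 8.92 and 8.17 CPM in Young TBI (log2 fold change -1.24 ± 0.17, adjusted p = 0.00158). Mest had 32.2, 35.4 and 21.1 CPM against 73.0, 60.3 and 67.8 CPM (-1.18 ± 0.22), and the growth factor gene Igf2 18.5, 14.5 and 15 CPM against 31.6, 25.6 and 23.1 CPM (-0.74 ± 0.16, adjusted p = 0.0116). All 3 were apart.

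In the insulin-like growth factor axis, where Igf1 and Igf2 are the ligands, 6 of 16 genes were called lower and 2 higher, the higher count being 1 without Aged TBI 3, Young TBI 1, Young TBI 3, Aged Sham 2, Young Sham 1 or Young Sham 3, and 4 with library totals alone. Igfals, the stabilising partner of circulating IGF, had 1.89, 2.60 and 2.05 CPM in Aged TBI and 5.81, 5.98 and 4.08 CPM in Young TBI (log2 fold change -1.29 ± 0.20, adjusted p = 0.00308). Pappa2, a protease that frees IGF from its binding proteins, rose with 76.6, 26.8 and 72.4 CPM against 17.8, 21.5 and 15.7 CPM (1.66 ± 0.32, adjusted p = 0.00648). Aged TBI 2 was far below the other old libraries for Pappa2 and still above all young ones.

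Of 33 TGF-beta and BMP genes 5 were called higher and 8 lower, set against 9.92% and 10.3% of all genes. The counts were 8 and 10 without Aged Sham 3, 3 and 7 without Aged TBI 3, 4 and 5 without Young TBI 1, 2 and 8 without Young TBI 2, and 8 and 7 with library totals alone. The secreted inhibitors went apart. Fst, follistatin, which binds activin, had 17.8, 12.4 and 12.2 CPM in Aged TBI and 6.97, 6.30 and 7.15 CPM in Young TBI (log2 fold change 1.06 ± 0.26, adjusted p = 0.0206), and Nog, noggin, which binds BMP, 34.9, 51.7 and 39.7 CPM against 73.2, 69.3 and 59.3 CPM (-0.68 ± 0.15, adjusted p = 0.0143). Tgfbr2, the type II receptor, was not called (-0.12 ± 0.05). Of 40 Wnt genes 7 were called higher and 5 lower, set against 9.92% and 10.3% of all genes, with 13 and 3 with library totals alone, 3 and 1 without Aged TBI 1, 4 and 3 without Aged TBI 3, 4 and 1 without Young TBI 1, 2 and 1 without Young TBI 2, and 6 and 3 without Young Sham 1 or Young Sham 2. Rspo2, which amplifies Wnt signals, had 6.03, 7.74 and 6.47 CPM against 2.91, 1.99 and 3.32 CPM (1.32 ± 0.24, adjusted p = 0.00587), and the coreceptor Lrp5, known for its part in bone mass, 235, 199 and 198 CPM against 405, 338 and 339 CPM (-0.78 ± 0.09, adjusted p = 0.000767).

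Of 24 endoplasmic reticulum chaperone and stress genes 9 were called lower and 15 were not called, and of 18 heat shock genes 9 were called lower and 9 were not called, with 5 of each lower without Aged TBI 3. With library totals alone the endoplasmic reticulum list had 5 lower and 2 higher, at a median log2 fold change of 0.00. Hspa5, the chaperone BiP, had 483, 546 and 470 CPM in Aged TBI and 678, 607 and 779 CPM in Young TBI (log2 fold change -0.46 ± 0.11, adjusted p = 0.0172). Calr, calreticulin, had 688, 677 and 587 CPM against 907, 843 and 943 CPM (-0.46 ± 0.09, adjusted p = 0.00838), and the constitutive heat shock protein gene Hspa8 792, 846 and 737 CPM against 941, 1000 and 1010 CPM (-0.31 ± 0.07). The groups were apart for all 3. Hyou1 (-0.36 ± 0.10) and Hsph1 (-0.35 ± 0.10) also fell, and Hsp90b1 was not called (-0.19 ± 0.09). In the actin cytoskeleton 9 of 24 genes were called lower, such as the focal adhesion gene Tns1 with 389, 390 and 389 CPM against 539, 476 and 536 CPM (-0.41 ± 0.11), Actn1, alpha-actinin (-0.38 ± 0.09), and Myh9, non-muscle myosin (-0.33 ± 0.08), while the filamin gene Flna was not called (-0.13 ± 0.08).

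A few genes outside these groups were called with small effects. Their lists had few calls, set against 9.92% higher and 10.3% lower of all genes. Of 10 fat cell genes 2 were called higher and 1 lower. The regulator Pparg had 10.2, 10.1 and 9.13 CPM in Aged TBI and 5.23, 6.61 and 7.15 CPM in Young TBI (log2 fold change 0.64 ± 0.16), and Scd1, a fatty acid desaturase, 181, 182 and 164 CPM against 136, 126 and 147 CPM (0.37 ± 0.07). Of 21 senescence and p53 genes 1 was called higher and 1 lower (median -0.01). The higher was Cdkn2c, a cyclin kinase inhibitor, with 19.7, 22.2 and 22 CPM against 16.7, 16.2 and 12.6 CPM (0.48 ± 0.12). Of 20 immediate early genes 1 was called higher and 1 lower (median -0.15). The higher was Ier3, a survival gene, with 42.4, 52.5 and 42.0 CPM against 26.3, 27.5 and 26.0 CPM (0.78 ± 0.16). The 4 genes named were apart.

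Sham libraries show how much of this age difference was also present without a hit. Among them 1439 genes (7.89%) were called higher and 1406 (7.71%) lower in Aged Sham than in Young Sham, 2845 in all, and that number was 1741 without Aged Sham 2, 1874 without Young Sham 1 and 1226 without Young Sham 3. The 2 comparisons share no library. Of genes called higher in Aged TBI, 801 were also called higher in Aged Sham (44.3% of the injured and 55.7% of the sham calls), and of those called lower 817 (43.6% and 58.1%), while 3 genes were called in opposite directions. The 1007 genes called higher in the injured comparison alone had a positive sham log2 fold change in 870 cases, with medians of 0.42 in injured and 0.17 in sham libraries. For the 1055 called lower alone, 895 were negative in sham libraries, with medians of -0.33 and -0.11. Because these genes were picked by their injured value, the smaller sham medians are a description and no test of a difference.

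The difference between the 2 age effects was tested for each gene. None of the 18238 genes was called (lowest adjusted p = 0.643 by edgeR), DESeq2 called 5, and 1386 genes (7.60%) had an unadjusted p under 0.05 in edgeR. The standard error of that difference was larger than that of the injured age effect, at a median of 0.17 against 0.12 on the log2 scale. The 8 named genes with the lowest p, none called, are given by level. Plekha6 had 65.9, 74.0 and 69.1 CPM in Aged TBI, 88.1, 91.2 and 99.9 CPM in Young TBI, 94.2, 84.2 and 89.6 CPM in Aged Sham and 80.6, 85.0 and 75.6 CPM in Young Sham (difference -0.57 ± 0.10, unadjusted p = 9.78e-05). Kif1a, a motor of axonal transport, had 54.5, 62.0 and 54.2 CPM in Aged TBI, 91.4, 91.5 and 111 CPM in Young TBI, 83.5, 96.6 and 93.3 CPM in Aged Sham and 101, 88.5 and 84.2 CPM in Young Sham (-0.78 ± 0.14, unadjusted p = 9.81e-05). In both, Aged TBI was the one group that stood low. Itpk1, an inositol phosphate kinase, had the same shape (-0.48 ± 0.10, unadjusted p = 0.000447). Kcne4, a potassium channel subunit, crossed over with 101, 105 and 64.6 CPM in Aged TBI, 43.0, 52.8 and 51.9 CPM in Young TBI, 79.3, 54.3 and 76.9 CPM in Aged Sham and 92.9, 154 and 99.7 CPM in Young Sham (1.6 ± 0.32, unadjusted p = 0.000282), and its call in the injured comparison was lost without Young TBI 1 (adjusted p = 0.11). Bpifb4 (-3.86 ± 0.72), the forkhead factor Foxp2 (0.53 ± 0.10), the ribosomal protein gene Rpl30 (0.36 ± 0.07) and Mocos, of the molybdenum cofactor pathway (0.44 ± 0.10), made up the rest.

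Genes listed as differing between C57BL/6J and C57BL/6N mice were read because the 2 ages came from different colonies. Of the 5 listed 3 passed the filter on low counts. Nnt was among those set aside, so it was not read. Wdfy1 was not called, with 23.4, 25.3 and 23.8 CPM in Aged TBI and 21.8, 24.9 and 24.9 CPM in Young TBI. Ide (chromosome 19, 37268743 to 37337852), insulin-degrading enzyme, had 123, 129 and 137 CPM in Aged TBI and 85.8, 96.1 and 90.2 CPM in Young TBI (log2 fold change 0.51 ± 0.08, adjusted p = 0.00308). Fgfbp3 (chromosome 19, 36917550 to 36919615), a carrier of fibroblast growth factors, had 17.5, 19.7 and 17.7 CPM against 10.8, 12.7 and 10.2 CPM (0.70 ± 0.14, adjusted p = 0.00883). The 2 genes that were higher are neighbours on the same chromosome, both groups were apart, and sham libraries gave 0.44 ± 0.08 and 0.59 ± 0.14. Colony and age cannot be told apart for these or any other genes.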

How the data were processed

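Bulk RNA-seq libraries of dorsal meninges were used, 3 in each of 4 groups taken from the labels. The authors deposited raw counts per gene; the submitters' processing notes name HISAT2, SAMtools, HTSeq and mm10, without versions. The annotation and the strand setting are not given in the sources used here, so reads of overlapping or antisense genes and of near-identical copies are uncertain. The table had 55385 genes, 19413 without a count, and 0 unused value columns. Coordinates on GRCm38 came from GENCODE M21 by a unique name (53275 genes, 96.2%).

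Counts were analysed in edgeR 4.0.16 (R 4.3.3). After filterByExpr over the 4 groups (18238 genes tested, 37147 set aside), TMM scaling (factors 0.969 to 1.036) was applied, and counts were fitted by quasi-likelihood with 1 mean per group over all 12 libraries (common dispersion 0.0151). P-values were adjusted by Benjamini-Hochberg over all genes tested, and genes called at an adjusted p under 0.1. The contrasts were Aged TBI minus Young TBI, Aged Sham minus Young Sham, and their difference. Errors of log2 fold changes are standard errors. P-values measure the spread between pools. A count of 0 allows up to 3 counts, for counting error only. The fit was checked on simulated counts.

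The genes named were, by a rule, the 12 largest rises and 12 largest falls without overlap and with at least 1 CPM in the higher group, the 8 lowest p-values in each direction and for the difference, and in each list up to 4 called members with the largest change and up to 2 abundant members not called, leaving out predicted genes, pseudogenes and receptor segments; antibody, tissue and substrain genes could all be named. Not every gene that the rule takes is reported here. The comparison, the lists and the genes were chosen with earlier results of these data known, and lists were given no test. DESeq2 1.42.0, other scalings, no filter, a robust prior, a replicate block, the 6 injured libraries alone and each library left out in turn were tried.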

Additional observations from a re-analysis of the deposited data

How the results depend on the processing

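The count of genes called higher in Aged TBI, 1809, was 3195 with library totals alone, and ran between 959 and 2226 when 1 library was left out. The count called lower, 1874, ran between 1158 and 2269. DESeq2 called 1430 higher and 1844 lower, of which 1396 and 1729 were also called by edgeR. With DESeq2-type scaling in edgeR 1714 were higher and 2025 lower (45.8% higher), without a filter 1719 and 1567, with a robust prior 1771 and 1843, and with the 6 injured libraries alone 1840 and 2130. For the difference between age effects, 0 genes were called, but 5 with DESeq2 and 5 without a filter. The sham count, 2845, was 1787 with the 6 sham libraries alone and ran between 1226 and 3644 when 1 library was left out. The replicate numbers did not pair the libraries, as deviations of libraries with the same number correlated between -0.183 and 0.111 over 18 pairs. With the replicate block 1593 genes were higher and 1717 lower, 0 differed and 2476 were called in sham libraries. Of the named genes that were not called, Xbp1 turned to 0.03 with library totals alone, and Wdfy1 was -0.06 without Young TBI 1 and 0.04 without Young TBI 2. Of 183 genes named, 157 were called, and 148 of these stayed called in every alternative that gave them a value (DESeq2 gave 156 of them a value and the 6 injured libraries alone 153). The other 9 lost their call without 1 library, and 4 of them in another alternative too: Foxj1 (adjusted p = 0.111) and Krt5 (0.168) with a robust prior, Ighe with a robust prior (0.124) or the replicate block (0.135), and Ighd with the block (0.115) or the 6 injured libraries alone (0.141). None of the 157 changed direction. With 3 pools a group, counts of calls were limited by single libraries, above all Young TBI 1, and genes under 1 CPM by counting noise.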

Other observations

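Immediate early genes, which respond within minutes to stimuli and handling, differed more between pools than between ages. Their 20 genes summed to 921, 989 and 670 CPM in Aged TBI 1 to 3, 771, 1060 and 827 CPM in Young TBI 1 to 3, 813, 742 and 1480 CPM in Aged Sham 1 to 3 and 1090, 2200 and 945 CPM in Young Sham 1 to 3. Aged TBI 3, the pool that was also lowest in all 39 interferon genes, was the lowest of its group in all 20. Circadian clock genes summed to 1920, 1940 and 2090 CPM in Aged TBI and 1500, 1560 and 2060 CPM in Young TBI, so that Young TBI 3 lay with the old pools. Mast cell genes summed to 1650, 1530 and 1440 CPM in Aged TBI and 1330, 1570 and 1380 CPM in Young TBI, with 6 of 14 called higher, 11 with library totals alone, 1 without Aged TBI 1 and 3 without Young TBI 3.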
